A study of Mus musculus with 22 samples.

Results

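Adgrd1 and Nr5a2 were 2 of the 17023 genes to which the transcripts of the deposited count table could be assigned, and they were chosen by their levels in leukemia recovered from the peritoneal cavity (PC), where both were lower in NFKBIE-ko than in NFKBIE-wt samples. They accounted for 6 of the 62147 assigned transcripts, with 3 transcripts for each gene. Since the genotype difference in the PC chose them, it is described here with no test. Both genes were tested only between groups of the spleen and the cultures, whose samples the choice did not use. Comparisons of spleen with culture took their spread from a fit of all 22 samples, those of the PC included.

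All 22 samples came from TCL1-355 TKO, a murine leukemia line derived from the transgenic Eμ-TCL1 model of chronic lymphocytic leukemia, in which a TCL1 transgene is driven in B cells. Cells of both genotypes carried biallelic lesions of CDKN2A and CDKN2B and a phosphatidylcholine-binding, autoreactive B-cell receptor. NFKBIE-ko cells had received Cas9 ribonucleoprotein aimed at Nfkbie, the gene of the NF-κB inhibitor IκBε, and NFKBIE-wt cells had been mock transfected with Cas9 and no guide. Each genotype was propagated apart for 21 days in C57BL/6 mice, injected into the peritoneum of 5 C57BL/6 recipients, and recovered after 10 days without purification, with 4 samples of spleen and 4 of PC sequenced. A further 3 samples per genotype were cells from spleens of transplanted mice that had been kept for 2 weeks in culture, here called in vitro. The study's text names 2 C57BL/6 mice for the propagation of both genotypes. The spread within a spleen or PC group is therefore that between recipients and may not cover donor mice. The separate propagation of the lines cannot be told apart from the genotype, and nothing in the labels says whether a spleen and a PC sample came from the same mouse.

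Adgrd1 encodes GPR133, an adhesion G protein-coupled receptor with a long extracellular part, a self-cleaving domain and a tethered agonist, which raises cyclic AMP through the stimulatory G protein. Nr5a2 encodes LRH-1, a nuclear receptor that binds DNA as a monomer and phospholipids in its ligand pocket, and that is known for controlling bile acid and cholesterol genes in liver, digestive enzyme genes in pancreatic acinar cells and steroid synthesis in the ovary. Both are known mainly from tissues other than B cells.

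The guide matched 1 site in the GRCm39 genome, in exon 2 of the canonical transcript of Nfkbie at chr17:45869436-45869458 on the forward strand. It is shown since it defines the NFKBIE-ko group, with the protospacer-adjacent motif in capitals.
Nfkbie target: agtgattcacgaagccccgtCGG

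Adgrd1 (ENSMUSG00000044017) lies on chr5:129173781-129281663 of GRCm39 on the forward strand, and 3 of its 7 annotated transcripts were in the table. Adgrd1-201 (ENSMUST00000056617) has 26 exons and 903 codons. Adgrd1-203 (ENSMUST00000156437), the canonical transcript, has 25 exons and 871 codons, because it lacks coding exon 4 of 96 bases at chr5:129189292-129189387, which holds 32 whole codons, so that the reading frame is kept. These transcripts are told apart by that exon, which is printed with 20 intron bases on either side, the exon in capitals, at chr5:129189272-129189407 on the forward strand.
Adgrd1 exon 4: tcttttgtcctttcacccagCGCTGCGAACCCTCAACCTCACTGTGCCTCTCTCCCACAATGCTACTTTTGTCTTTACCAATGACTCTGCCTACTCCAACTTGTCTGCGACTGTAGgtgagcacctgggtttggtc

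Nr5a2 (ENSMUSG00000026398) lies on chr1:136770303-136888186 on the reverse strand, and 3 of its 8 annotated transcripts were in the table. Nr5a2-201 (ENSMUST00000027649) has 9 exons and 560 codons and begins at the upstream start. Nr5a2-202 (ENSMUST00000168126), the canonical transcript, has 7 exons and 499 codons and begins 10886 bases downstream, with 6 exons of the same bounds and 61 fewer codons. The remaining transcript of each gene stayed below the filter on low counts in every compartment, at 6 counts or fewer per sample for Adgrd1-202 (ENSMUST00000155590) and 9 or fewer for Nr5a2-206 (ENSMUST00000195428).

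**Figure D1:**
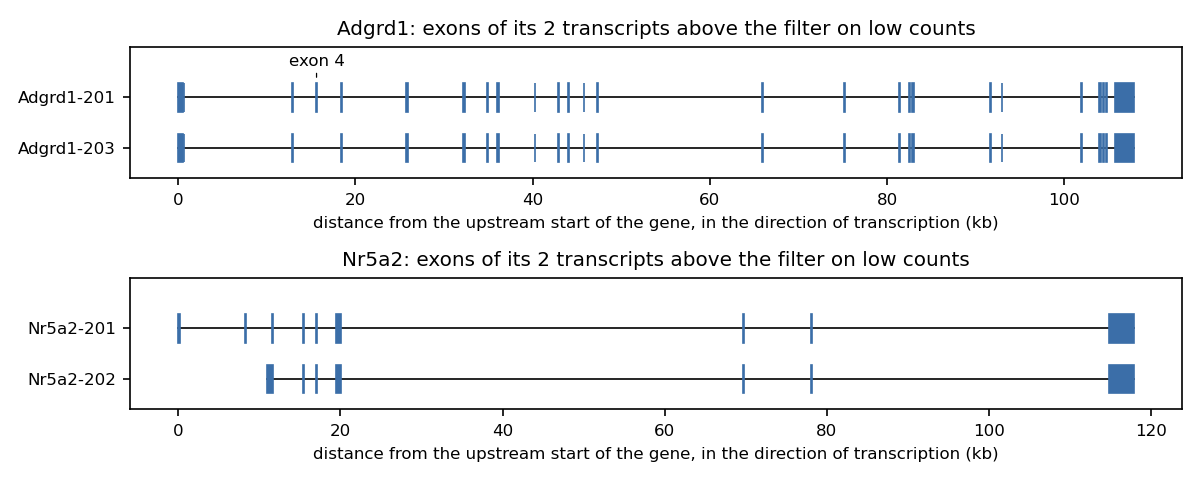
Exons (boxes) and introns (lines) of the 2 transcripts of each gene above the filter, with the distance in kb from the upstream start of the gene on the x axis, to scale and in the direction of transcription. Adgrd1-203 lacks exon 4 of Adgrd1-201, and Nr5a2-202 starts 10.886 kb downstream of Nr5a2-201.

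The 250 bases before each start are printed, 5′ to 3′ on the strand of the gene, since both genes were lower together in the PC and Nr5a2 has transcripts from both of its starts. Capitals mark matches to TATAAA or AGATAAG on either strand. The windows are chr5:129173531-129173780 (forward) for Adgrd1, chr1:136888187-136888436 (reverse) for the upstream and chr1:136877301-136877550 (reverse) for the downstream start of Nr5a2, all in GRCm39.
Adgrd1 promoter: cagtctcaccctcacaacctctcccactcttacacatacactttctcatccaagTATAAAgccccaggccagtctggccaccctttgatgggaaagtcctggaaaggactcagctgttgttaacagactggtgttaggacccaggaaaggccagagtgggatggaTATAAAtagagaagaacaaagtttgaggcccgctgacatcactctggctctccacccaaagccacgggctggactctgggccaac
Nr5a2 upstream promoter: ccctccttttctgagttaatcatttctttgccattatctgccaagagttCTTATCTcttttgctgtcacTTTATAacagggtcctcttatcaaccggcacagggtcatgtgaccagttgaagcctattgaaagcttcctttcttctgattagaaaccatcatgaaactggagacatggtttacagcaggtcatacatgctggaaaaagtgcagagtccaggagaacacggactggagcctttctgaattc
Nr5a2 downstream promoter: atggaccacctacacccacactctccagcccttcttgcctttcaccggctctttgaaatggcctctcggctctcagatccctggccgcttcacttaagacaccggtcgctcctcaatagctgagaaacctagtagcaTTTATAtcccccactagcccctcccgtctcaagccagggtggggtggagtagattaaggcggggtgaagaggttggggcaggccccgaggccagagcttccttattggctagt

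TATAAA, the core of the TATA box, was found 2 times in the Adgrd1 window, beginning 196 and 85 bases before the start, and in both Nr5a2 windows, at 181 and 113 bases. Of 21717 promoter windows of this length, 11.9% held it. AGATAAG, a site of GATA factors, was found in the upstream Nr5a2 window only, at 201 bases, and in 2.56% of all windows. None of the 3 windows held the NF-κB site, the octamer ATGCAAAT, the NR5A site AAGGTCA or the cyclic AMP response element TGACGTCA, which 7.63%, 1.49%, 3.92% and 1.69% of all windows held. The windows of Adgrd1 and of the upstream Nr5a2 start held 2 CpG dinucleotides each, and the downstream Nr5a2 window held 8, against a median of 8.

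The samples held between 24036763 and 26581304 estimated counts, and levels are given as CPM, the counts scaled for depth and by TMM over all samples. Summed over its transcripts, Nfkbie was lower in NFKBIE-ko in the PC (56.0 ± 7.10 against 78.0 ± 11.7 CPM, SD, n = 4, log2 difference -0.56, adjusted p = 0.00375 in edgeR's quasi-likelihood test), but not in the libraries labelled spleen (0.19, adjusted p = 0.729), and its lower mean in vitro did not pass the test (-0.93, adjusted p = 0.516). Without NFKBIE-wt spleen replicate 4 and NFKBIE-wt in vitro replicate 3, whose markers went against their labels, these values were 0.43 (adjusted p = 0.294) and -1.23 (adjusted p = 0.0902). The study's text reports nearly complete editing and almost no IκBε protein in its NFKBIE-ko lines, and RNA levels do not measure either. Within the libraries labelled NFKBIE-ko spleen, replicate 2 held 52.5 CPM of Nfkbie and the others between 111 and 119 CPM. The spleen and in vitro libraries are therefore named by their labels.

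The cell type markers of 2 libraries went against their compartment. The library labelled NFKBIE-wt spleen replicate 4 held 0.113 CPM of granulocyte and 5.57 CPM of erythroid markers, whereas the other 3 libraries of its group held at least 54.9 and 242 CPM. Replicate 3 of the cultures labelled NFKBIE-wt held 183 and 1226 CPM of these markers, against at most 3.24 and 19.3 CPM in the other 2 cultures. Over the 2000 most variable genes, the former had a correlation of 0.962 and 0.932 with the other NFKBIE-wt cultures and of 0.740 to 0.801 with the spleens of its group, and the latter of 0.953 to 0.966 with the other NFKBIE-wt spleens and of 0.702 and 0.766 with the cultures of its group. With both libraries in place, 0 of 13538 genes were called between NFKBIE-wt spleen and culture in edgeR (1061 at an unadjusted p below 0.05, and 21 called in DESeq2), whereas edgeR called 3611 of 13760 without them. They were kept in their labelled groups, and the tests of both genes that use them are given with and without them.

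**Figure D2:**
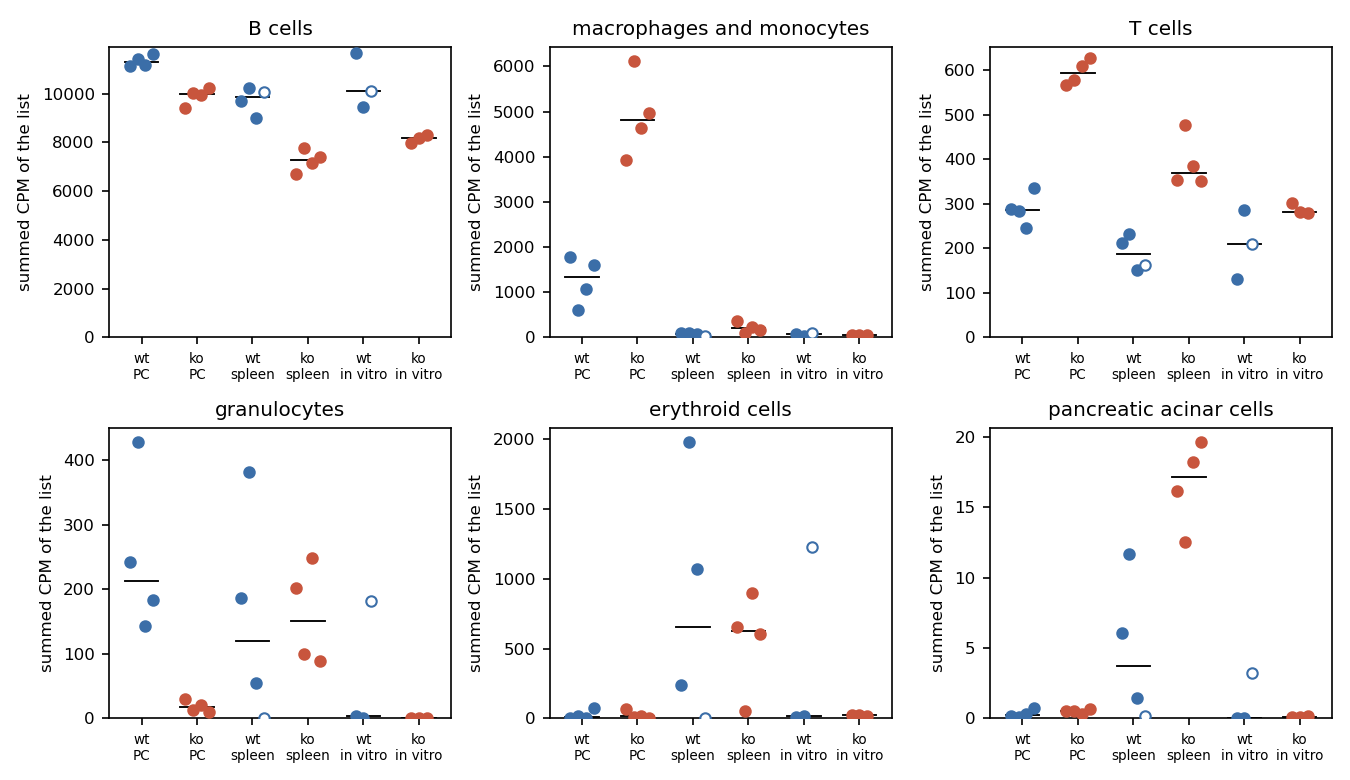
Summed CPM (linear y axis from 0) of the markers of 6 cell types in each sample of the 6 groups (x axis), blue for NFKBIE-wt and red for NFKBIE-ko, with a line at the median. Open circles are the libraries labelled NFKBIE-wt spleen replicate 4 and in vitro replicate 3, which lie with the other compartment in granulocyte and erythroid markers.

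Adgrd1 had its highest levels in the NFKBIE-wt PC. The 4 NFKBIE-wt PC samples held 406, 384, 479 and 390 CPM of Adgrd1. The 4 NFKBIE-ko PC samples held 185, 126, 151 and 150 CPM. Every NFKBIE-ko sample lay below every NFKBIE-wt sample of the PC by a wide margin.

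The group means of Adgrd1 in the PC were 415 ± 44.0 CPM in NFKBIE-wt and 153 ± 24.1 CPM in NFKBIE-ko (SD, n = 4), 2.71-fold apart, and the fitted log2 difference was -1.53 (standard error 0.14). Of 12642 genes, 228 had a lower log2 difference. Separation of this kind was common in the PC, where 14.1% of all genes were lower in NFKBIE-ko with no overlap and 20.9% were called lower by the test, so that nothing is read from it about Adgrd1.

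Both Adgrd1 transcripts followed the sum in the PC. Adgrd1-201 stood at 324, 302, 375 and 343 CPM in NFKBIE-wt and at 133, 98.3, 125 and 117 CPM in NFKBIE-ko, a log2 difference of -1.54 (standard error 0.12) with no overlap, as 8.8% of all transcripts were lower in NFKBIE-ko. Adgrd1-203, which lacks exon 4, stood at 82.6, 82.7, 104 and 46.8 CPM in NFKBIE-wt and at 51.5, 28.0, 25.7 and 33.0 CPM in NFKBIE-ko, a log2 difference of -1.23 (standard error 0.30). Here NFKBIE-ko replicate 1 lay above NFKBIE-wt replicate 4, and the other 3 NFKBIE-ko samples lay below the whole NFKBIE-wt group. The share of Adgrd1 counts given to Adgrd1-203 averaged between 16.4% and 22.3% in the 6 groups, and the ranges of both genotypes overlapped in every compartment.

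In the spleen, Adgrd1 was low and even in NFKBIE-wt, and varied more in NFKBIE-ko. The libraries labelled NFKBIE-wt spleen held 53.2, 51.1, 50.7 and 53.4 CPM, the last of them replicate 4. Those labelled NFKBIE-ko spleen held 60.9, 121, 50.7 and 72.5 CPM. Of the NFKBIE-ko libraries 3 lay above and 1, by a margin in the third digit, below the NFKBIE-wt range.

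The spleen means were 52.1 ± 1.41 CPM in NFKBIE-wt and 76.3 ± 31.2 CPM in NFKBIE-ko (SD, n = 4), and the log2 difference of 0.51 (standard error 0.25) did not pass edgeR's quasi-likelihood test (adjusted p = 0.262). In this comparison 5.48% of all genes passed. It was 0.53 (adjusted p = 0.259, where 12.2% passed) without NFKBIE-wt replicate 4, and 0.18 without NFKBIE-ko replicate 2, the library at 121 CPM. NFKBIE-ko replicate 2 also had the fewest erythroid marker counts of its group, at 53.4 against 605 CPM or more, and the part of this in its Adgrd1 level was not tested. Neither Adgrd1-201 (log2 difference 0.49, adjusted p = 0.532) nor Adgrd1-203 (0.85, adjusted p = 0.446) passed, where 0.312% of all transcripts were called at an adjusted p below 0.05 and a log2 difference beyond 1.

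In vitro, the NFKBIE-wt cultures held 72.8, 79.8 and 84.6 CPM of Adgrd1, the last of them replicate 3. The NFKBIE-ko cultures held 81.3, 74.5 and 54.7 CPM. The genotypes overlapped, with 1 NFKBIE-ko culture below the NFKBIE-wt range, and the log2 difference of -0.21 (standard error 0.16, adjusted p = 0.613, edgeR) did not pass, where 5 of 11722 genes, or 0.0427%, did. Without NFKBIE-wt replicate 3 it was -0.13 (adjusted p = 0.818, where 0.076% passed), and it ran from -0.32 without NFKBIE-ko replicate 1 to -0.057 without NFKBIE-ko replicate 3. Neither Adgrd1-201 (-0.23, adjusted p = 0.878) nor Adgrd1-203 (-0.080, adjusted p = 0.932) passed, and 0% of the 33361 transcripts were called in edgeR (1774 at an unadjusted p below 0.05, and 224 called in DESeq2).

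Across compartments, the mean Adgrd1 level of the NFKBIE-wt PC was 7.97 times that of the NFKBIE-wt spleen and 5.25 times that of the NFKBIE-wt cultures, and 8.03 and 5.44 times without the doubted libraries. In NFKBIE-ko the same ratios were 2.01 and 2.18. The lowest Adgrd1 value of the PC, 126 CPM in NFKBIE-ko replicate 2, lay above all 14 spleen and culture values, of which NFKBIE-ko spleen replicate 2 came nearest. Because the PC chose the gene, these ratios are described with no test.

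The groups outside the PC were close. All 4 NFKBIE-wt spleen libraries lay below all 3 NFKBIE-wt cultures in Adgrd1, with a log2 difference, spleen minus culture, of -0.60 (standard error 0.22, adjusted p = 0.585 in edgeR on all 22 samples). Of all genes, 1.06% were lower in these spleens with no overlap. The test called 0% of the genes with the doubted libraries and 26.2% without them, and Adgrd1 then stood at -0.51 (adjusted p = 0.177). In NFKBIE-ko the difference was 0.12 (adjusted p = 0.710, where 30.3% of genes passed), and it was -0.22 without spleen replicate 2 and -0.024 without culture replicate 3. The genotype difference in the spleen exceeded that in vitro by 0.72 (standard error 0.32, adjusted p = 0.269, where 0.443% of genes passed), and by 0.67 (adjusted p = 0.433, where 0.938% passed) without the doubted libraries. Without NFKBIE-ko spleen replicate 2 this excess was 0.38.

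**Figure D3:**
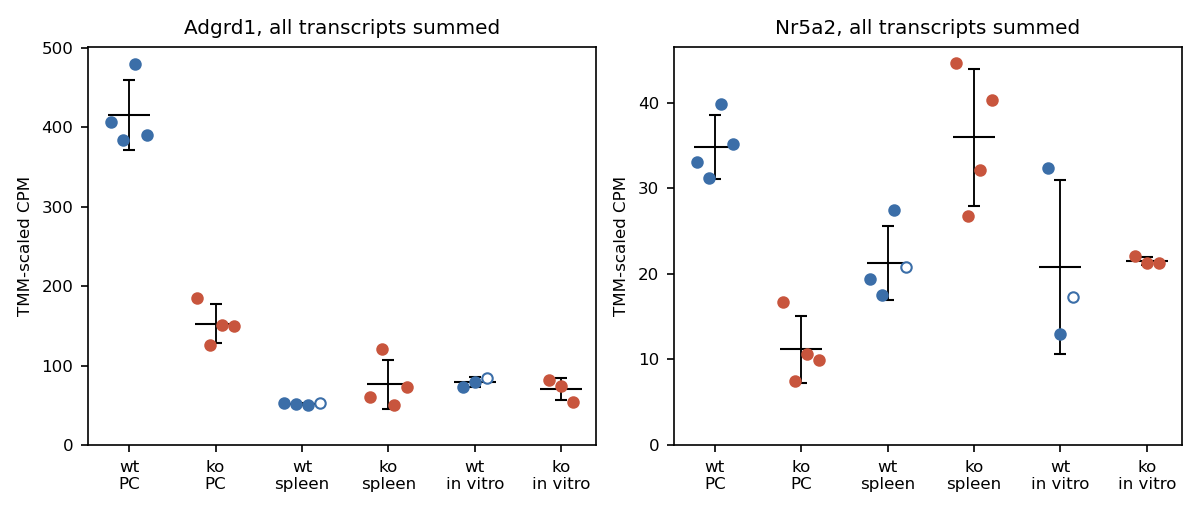
TMM-scaled CPM (linear y axis from 0) of Adgrd1 and Nr5a2, each summed over its transcripts, in every sample of the 6 groups (x axis), blue for NFKBIE-wt and red for NFKBIE-ko, with the mean and SD. Adgrd1 was highest in the NFKBIE-wt PC at 415 CPM, and Nr5a2 was lowest in the NFKBIE-ko PC at 11.2 CPM. Open circles are the libraries that went against their compartment label.

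Nr5a2 was expressed at a lower level than Adgrd1 in all groups, and its order across the compartments was another one. Its 4 NFKBIE-wt PC samples held 33.0, 31.2, 39.8 and 35.1 CPM. The 4 NFKBIE-ko PC samples held 16.7, 7.53, 10.6 and 9.96 CPM. All NFKBIE-ko samples lay below all NFKBIE-wt samples, as in 14.1% of all genes, with replicate 1 highest among the NFKBIE-ko samples, as it was for Adgrd1.

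The means of Nr5a2 in the PC were 34.8 ± 3.72 CPM in NFKBIE-wt and 11.2 ± 3.90 CPM in NFKBIE-ko (SD, n = 4), 3.11-fold apart, with a fitted log2 difference of -1.72 (standard error 0.23). Of 12642 genes, 187 had a lower value. The transcript from the upstream start, Nr5a2-201, stood at 26.4, 25.1, 31.6 and 29.5 CPM in NFKBIE-wt and at 12.1, 7.15, 7.62 and 8.28 CPM in NFKBIE-ko (log2 difference -1.71, standard error 0.19). The transcript from the downstream start, Nr5a2-202, stood at 6.47, 6.05, 7.89 and 5.57 CPM and at 4.52, 0.381, 2.99 and 1.67 CPM (-1.47, standard error 0.61), where NFKBIE-ko replicate 2 rested on 9 counts. Neither transcript overlapped between the genotypes in the PC, where 8.8% of all transcripts were lower with no overlap.

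In the spleen, Nr5a2 leaned the other way. The libraries labelled NFKBIE-wt spleen held 19.4, 17.5, 27.4 and 20.8 CPM of Nr5a2, the last of them replicate 4. Those labelled NFKBIE-ko spleen held 44.6, 26.8, 32.1 and 40.3 CPM. Of the NFKBIE-ko libraries 3 lay above all NFKBIE-wt libraries, and replicate 2 fell just under NFKBIE-wt replicate 3.

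The spleen means were 21.3 ± 4.30 CPM in NFKBIE-wt and 35.9 ± 8.02 CPM in NFKBIE-ko (SD, n = 4). The log2 difference of 0.70 (standard error 0.20) missed the threshold in edgeR's quasi-likelihood test (adjusted p = 0.0835, where 5.48% of all genes passed). DESeq2 gave 0.71 with an adjusted p of 0.0204. Its share of all genes called is not given here, but it called 915 transcripts of the spleen where edgeR called 104. Without NFKBIE-wt replicate 4 the edgeR value was 0.70 (adjusted p = 0.0797, where 12.2% passed). Nr5a2-201 held 17.9, 15.8, 21.3 and 16.2 CPM in NFKBIE-wt and 35.2, 23.4, 25.3 and 31.2 CPM in NFKBIE-ko, so that all 4 NFKBIE-ko libraries lay above, with a log2 difference of 0.70 (standard error 0.18, adjusted p = 0.182 over all transcripts in edgeR). With no overlap, 4.66% of all transcripts and 8.97% of all genes were higher in NFKBIE-ko spleens. Nr5a2-202 overlapped (log2 difference 1.02, adjusted p = 0.518).

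Markers of pancreatic acinar cells, in which Nr5a2 is active, were also higher in the libraries labelled NFKBIE-ko spleen. All 8 markers of the list were in the table, and their sum lay between 12.5 and 19.6 CPM in NFKBIE-ko and between 0.150 and 11.7 CPM in NFKBIE-wt, with 0 of the 6 markers tested past the threshold in edgeR (4 at an unadjusted p below 0.05) and 4 called in DESeq2, among them Ctrb1 and Prss2. The 0.150 CPM belonged to NFKBIE-wt spleen replicate 4, whose markers went against its label, and the rest of its group held 6.03, 11.7 and 1.44 CPM. In the PC the acinar sum was under 1 CPM in all 8 samples, with Cpa1, Ctrb1 and Prss2 at 0 in both genotypes. Marker sums of other cell types moved with the labelled genotype of the spleen as well. B-cell markers summed to between 6685 and 7761 CPM in NFKBIE-ko and between 9016 and 10212 CPM in NFKBIE-wt, with 2 of 10 called lower, where 5.48% of all genes were called. Of the plasma cell markers (434 to 564 against 479 to 800 CPM), 4 of 5 tested were called lower. Those of intestinal epithelium lay between 6.26 and 11.2 CPM in NFKBIE-ko, with 1 of 2 tested called lower. In NFKBIE-wt they held 44.0, 53.7, 81.0 and 6.55 CPM, the last of them replicate 4. All 4 NFKBIE-ko libraries lay above the NFKBIE-wt range in markers of T cells (352 to 477 against 150 to 232 CPM), NK and cytotoxic cells (38.8 to 106 against 2.90 to 11.99 CPM), macrophages and monocytes (102 to 368 against 37.3 to 101 CPM) and dendritic cells (12.8 to 24.2 against 6.48 to 10.1 CPM). In the cultures, dendritic markers also separated NFKBIE-ko from NFKBIE-wt (16.5 to 18.1 against 8.35 to 10.5 CPM). B-cell markers did so too, with NFKBIE-ko lower (7991 to 8306 against 9435 to 11663 CPM). T-cell markers overlapped there (278 to 303 against 131 to 286 CPM). The sums of NK and cytotoxic cells and of macrophages and monocytes stayed within the NFKBIE-wt range there. These sums are therefore not counts of such cells. The part of these cell types in the Adgrd1 and Nr5a2 levels of the spleen was not tested.

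In vitro, the NFKBIE-wt cultures held 32.3, 12.9 and 17.2 CPM of Nr5a2, the last of them replicate 3, and the NFKBIE-ko cultures 22.03, 21.2 and 21.2 CPM. The NFKBIE-ko values lay within the NFKBIE-wt range, and the log2 difference was 0.0095 (standard error 0.33, adjusted p = 0.991, edgeR), or -0.09 (adjusted p = 0.956) without NFKBIE-wt replicate 3. It ran from -0.25 without NFKBIE-wt replicate 2 to 0.47 without NFKBIE-wt replicate 1. Nr5a2-201 (-0.11, adjusted p = 0.960) and Nr5a2-202 (0.52, adjusted p = 0.886) did not pass either. The share of Nr5a2 counts given to Nr5a2-202 was 24.2% to 25.9% in the NFKBIE-ko and 14.3% to 20.6% in the NFKBIE-wt cultures. The 14.3% belonged to replicate 3. How common such a separation was among all genes was not computed, so nothing is read from it. In the other compartments the shares of the genotypes overlapped, from 5.06% to 28.2% in the NFKBIE-ko PC.

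**Figure D4:**
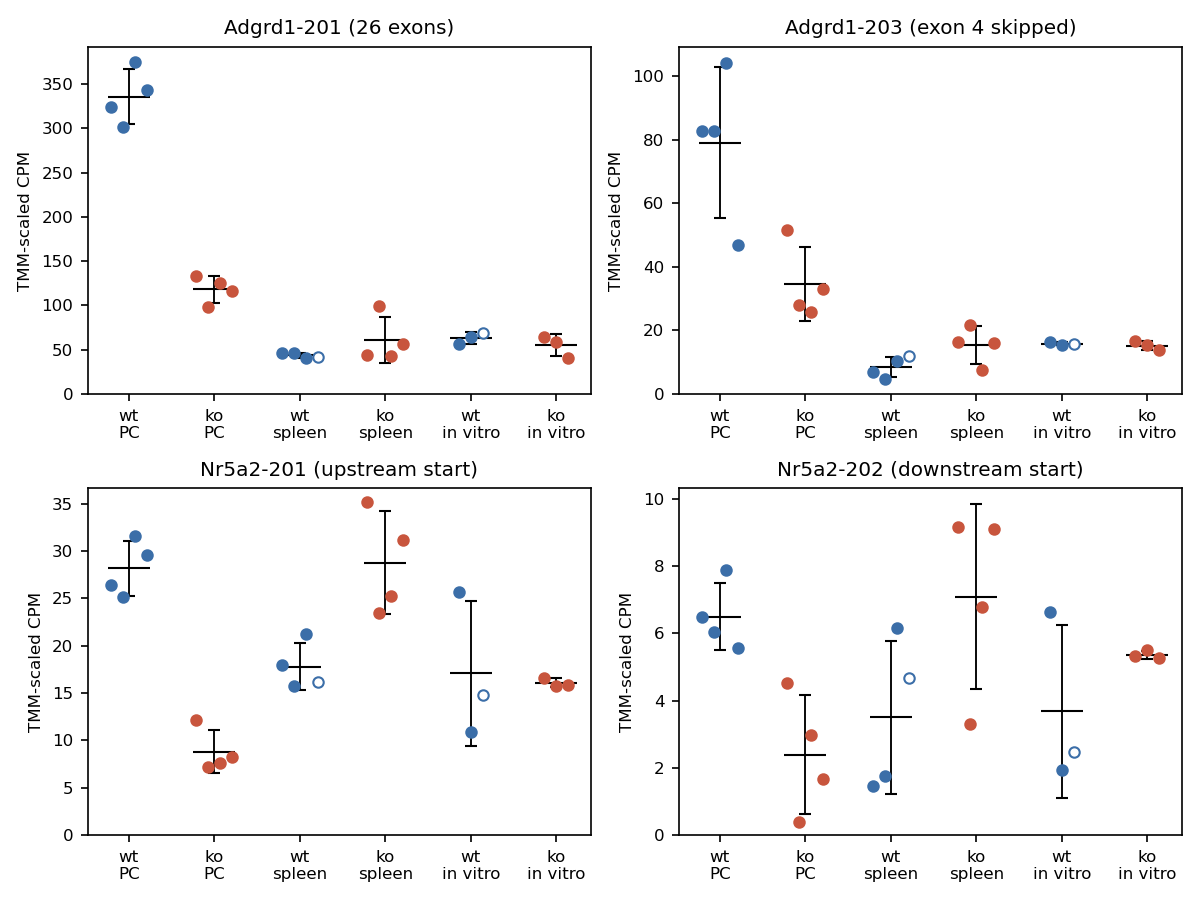
TMM-scaled CPM (linear y axis from 0, its own scale in each panel) of the 4 transcripts above the filter in every sample of the 6 groups (x axis), blue for NFKBIE-wt and red for NFKBIE-ko, with the mean and SD. In the PC all 4 NFKBIE-ko samples lay below the NFKBIE-wt samples in 3 panels and 3 of 4 in the panel of Adgrd1-203. Open circles are the libraries that went against their compartment label.

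The mean Nr5a2 level of the PC lay above those of the other compartments in NFKBIE-wt and below them in NFKBIE-ko. The mean of the NFKBIE-wt PC was 1.63 times that of the NFKBIE-wt spleen and 1.67 times that of the NFKBIE-wt cultures (1.623 and 1.54 times without the doubted libraries), whereas the mean of the NFKBIE-ko PC was 0.311 times that of the NFKBIE-ko spleen and 0.521 times that of the NFKBIE-ko cultures. From low to high, the groups ran from NFKBIE-ko PC over NFKBIE-wt in vitro, NFKBIE-wt spleen, NFKBIE-ko in vitro and NFKBIE-wt PC to NFKBIE-ko spleen. The 3 groups in the middle, with means from 20.8 to 21.5 CPM, did not differ beyond their spread, and without the doubted libraries they ran from NFKBIE-wt spleen (21.4 CPM) over NFKBIE-ko in vitro (21.5 CPM) to NFKBIE-wt in vitro (22.6 CPM). The ranges of the NFKBIE-wt PC and NFKBIE-ko spleen overlapped. For Adgrd1 the order was NFKBIE-wt spleen, NFKBIE-ko in vitro, NFKBIE-ko spleen, NFKBIE-wt in vitro, NFKBIE-ko PC and NFKBIE-wt PC, where the ranges of neighbours overlapped in the middle 3.

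All 4 NFKBIE-ko spleen libraries lay above all 3 NFKBIE-ko cultures in Nr5a2. The log2 difference of 0.73 (standard error 0.29, adjusted p = 0.0598 in edgeR on all 22 samples, where 30.3% of genes passed) missed the threshold. Of all genes, 25.2% were higher in these spleens with no overlap. Without the doubted NFKBIE-wt libraries it was 0.77 (adjusted p = 0.0414), where 39% of all genes passed, and DESeq2 gave 0.75 (adjusted p = 0.0333), so that the call rested on the setting. It also passed without NFKBIE-ko PC replicate 1, NFKBIE-ko spleen replicate 2 or NFKBIE-wt culture replicate 1 or 2 (adjusted p from 0.0272 to 0.0413 in edgeR). In NFKBIE-wt the difference was 0.033 (adjusted p = 0.978), and -0.030 (adjusted p = 0.961) without them. The genotype difference in the spleen exceeded that in vitro by 0.70 (standard error 0.40, adjusted p = 0.422), and by 0.80 (adjusted p = 0.456) without them. Without NFKBIE-wt culture replicate 1 this excess was 0.22, and without NFKBIE-wt culture replicate 2 it was 0.96.

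**Figure D5:**
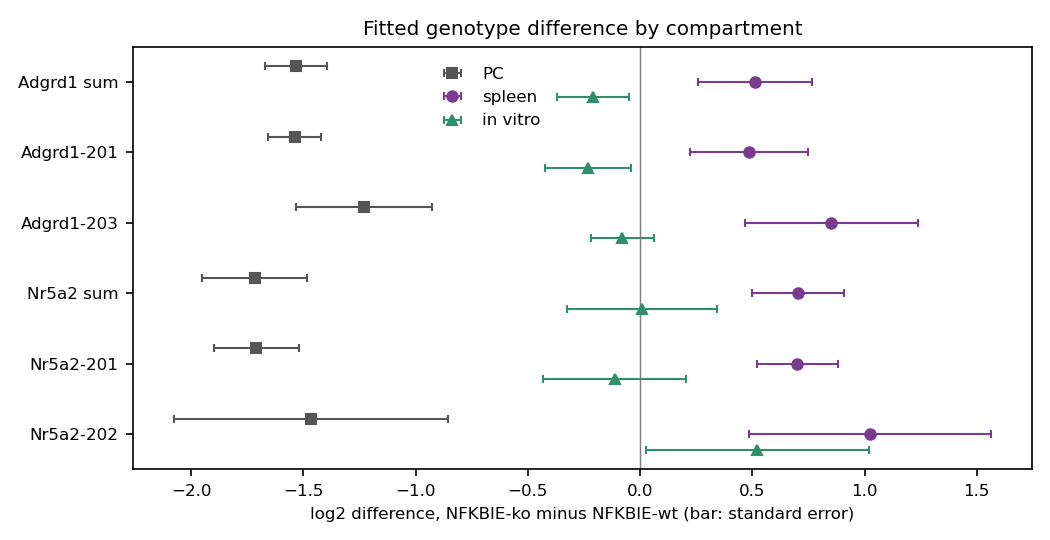
Fitted log2 difference, NFKBIE-ko minus NFKBIE-wt (x axis), with its standard error, of both gene sums and 4 transcripts (y axis) in the PC, the spleen and in vitro. The PC values, which chose the genes, lie between -1.72 and -1.23, and the spleen values between 0.49 and 1.02 with no value past the threshold in edgeR.

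Per kb of transcript, the level of Adgrd1 exceeded that of Nr5a2 in every group. It was 80.1 ± 8.53 against 7.40 ± 0.935 CPM per kb in the NFKBIE-wt PC and 29.6 ± 4.68 against 2.33 ± 0.817 in the NFKBIE-ko PC (SD, n = 4). The levels were nearest in the spleen, at 10.1 ± 0.276 against 4.43 ± 0.873 CPM per kb in NFKBIE-wt and 14.7 ± 6.02 against 7.56 ± 1.74 in NFKBIE-ko (SD, n = 4).

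Marker sums of the PC samples differed between the genotypes. The samples were not purified, and in such RNA fewer cells of a type and less RNA per cell cannot be told apart. The summed B-cell markers, all 10 above 1 CPM on average, lay between 9406 and 10236 CPM in the NFKBIE-ko PC and between 11128 and 11631 CPM in the NFKBIE-wt PC, although 5 of the 10 were called higher and 3 lower in NFKBIE-ko. This sum was also lower in the NFKBIE-ko cultures, at 7991 to 8306 against 9435 to 11663 CPM, with 0 of 10 called. It is thus not a measure of the share of B cells alone. Markers of macrophages and monocytes lay between 3924 and 6126 against 612 and 1783 CPM, with 11 of 12 higher in edgeR, and those of T cells between 566 and 627 against 245 and 336 CPM, with 8 of 10 higher and 1 lower. Granulocyte markers lay between 9.29 and 30.3 against 143 and 429 CPM, with 5 of 6 tested lower, and those of fibroblasts and stroma between 8.62 and 9.45 against 11.0 and 38.8 CPM, with 4 of 4 lower. Mesothelial markers lay between 1.56 and 2.54 against 3.12 and 5.33 CPM, with the 1 tested lower. The ranges of plasma cell markers (339 to 399 against 375 to 537 CPM, 2 of 5 lower) and of platelet markers (5.33 to 17.9 against 9.91 to 20.7 CPM, 1 of 2 lower) overlapped. Markers of large peritoneal macrophages (77.8 to 167 against 27.4 to 52.9 CPM, 5 of 7 higher) lay higher in NFKBIE-ko with no overlap. So did endothelial markers (102 to 118 against 58.0 to 68.6 CPM, 2 of 2 higher). NK and cytotoxic markers (38.7 to 66.7 against 13.7 to 38.8 CPM) overlapped, with 6 of 8 higher and 1 lower. Beside all these counts, 43.4% of all genes were called in the PC, 22.5% higher and 20.9% lower.

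Both genes were also set against the B-cell marker sum, whose members moved both ways and which was also lower in the NFKBIE-ko cultures. The median of this sum was 11302 CPM for the NFKBIE-wt PC and 9989 CPM for the NFKBIE-ko PC. This gap was far smaller than that of either gene, and these samples had chosen the genes. Lower values in the NFKBIE-ko PC were therefore largely set in advance, and nothing is read from them about composition. Per 1000 CPM of B-cell markers Adgrd1 stood at 15.5 ± 2.98 in NFKBIE-ko and 36.6 ± 4.37 in NFKBIE-wt, and Nr5a2 at 1.14 ± 0.443 and 3.07 ± 0.351 (SD, n = 4), with no overlap. How common such a separation was among all genes on this scale was not computed. The differences of Adgrd1 and Nr5a2 in mean log2 on this scale were -1.25 and -1.49. The part of granulocytes, fibroblasts and stroma, mesothelial cells, plasma cells and platelets, some or all of whose tested markers were called lower, was not tested.

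Receptors of the family of Adgrd1 were tested on counts summed per gene. Of 29 other adhesion receptors, 11 passed the filter in the PC, where 6 were higher and 2 lower in NFKBIE-ko, with a median log2 difference of 0.94 against -0.01 over all genes and 43.4% of all genes called. Adgre1, the macrophage marker F4/80, rose from 50.3 ± 18.7 to 267 ± 49.2 CPM (SD, n = 4, log2 difference 2.31, adjusted p = 0.000675). Adgre5, the leukocyte receptor CD97, rose by 0.32 (adjusted p = 0.0146) and the latrophilin Adgrl2 by 1.13 (adjusted p = 4.19e-05). Adgrl1 fell by 0.55 (adjusted p = 0.0117), as did Adgrg3, a receptor of granulocytes that was under 1 CPM in both groups. In the spleen 0 of 9 and in vitro 0 of 8 of these receptors passed in edgeR (3 and 2 at an unadjusted p below 0.05) and 0 in DESeq2. Of all genes, 5.48% and 0.0427% passed there in edgeR. Without the doubted libraries Adgre1 was called higher in the spleen, where 12.2% of all genes passed.

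Of 34 genes of the stimulatory G protein and cyclic AMP pathway and partners of Adgrd1, 27 were tested in the PC, with 7 higher and 5 lower, beside the 43.4% of all genes called. Plxdc2, which encodes a ligand of GPR133, rose from 2.74 ± 1.30 to 13.7 ± 5.78 CPM (log2 difference 2.22, adjusted p = 0.00395). Rapgef3, the cyclic AMP sensor Epac1, fell from 4.21 ± 0.366 to 0.360 ± 0.249 CPM (SD, n = 4, -3.64, adjusted p = 4.10e-05). It was also the 1 gene of the list called in the spleen, where it fell by 3.33 (adjusted p = 0.0292). Of the list 26 genes were tested there, and 5.48% of all genes passed. The cyclase genes Adcy3 (-1.07, adjusted p = 0.00104) and Adcy6 (2.28, adjusted p = 3.30e-05) moved apart. In vitro 0 of 23 passed in edgeR (4 at an unadjusted p below 0.05), and 1, Rapgef3 again, in DESeq2.

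Of 47 nuclear receptors other than Nr5a2, 24 were tested in the PC, with 9 higher and 4 lower, against 43.4% of all genes. Vdr, the vitamin D receptor, fell from 18.8 ± 4.50 to 5.71 ± 1.42 CPM (SD, n = 4, log2 difference -1.81, adjusted p = 0.000236), and the clock repressors Nr1d1 (-1.04, adjusted p = 0.000218) and Nr1d2 (-0.60, adjusted p = 0.000522) fell as well. The retinoid receptors Rarb (1.92, adjusted p = 4.26e-05), Rarg (1.20, adjusted p = 0.000623) and Rxra (1.77, adjusted p = 6.88e-05) rose, as did Nr1h3, the oxysterol receptor of macrophages (1.89, adjusted p = 0.000245), beside the macrophage markers. In the spleen Rarg (1.00, adjusted p = 0.0147) and Nr1h3 (3.28, adjusted p = 0.0309) were the 2 called of 23 (5.48% of all genes), and 4 were called without the doubted library, 3 higher and 1 lower (12.2% of all genes). DESeq2 called 5. In vitro 0 of 20 passed in edgeR (4 at an unadjusted p below 0.05) and 0 in DESeq2.

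Among 14 cofactors of LRH-1, 9 were tested in the PC and 3 were higher, the coactivator Ncoa3 (0.66, adjusted p = 0.00114), the corepressor Nrip1 (2.08, adjusted p = 1.46e-05) and Ctnnb1, which encodes β-catenin (0.31, adjusted p = 0.00485). Of 20 genes known from textbooks as LRH-1 targets, 8 were tested, of which 2 rose and 2 fell, where again 43.4% of all genes were called. Scarb1, the receptor for high-density lipoprotein, fell by 0.68 (adjusted p = 3.87e-05) and Pou5f1 by 1.48 (adjusted p = 0.00845). Ccnd1, the cyclin D1 gene, rose by 3.25 (adjusted p = 8.62e-05) and the steroid enzyme gene Cyp11a1 by 1.77 (adjusted p = 0.000212). In edgeR 0 genes of both lists passed in the spleen (1 cofactor and 2 targets at an unadjusted p below 0.05) and in vitro (2 and 1). Of all genes, 5.48% and 0.0427% passed there. DESeq2 called the targets Scarb1 and Sphk1 in the spleen and the cofactor Nrip1 in vitro. Without NFKBIE-wt spleen replicate 4, edgeR called Scarb1 and Sphk1 lower in the spleen, where 12.2% of all genes passed.

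Of the nearest genes on either side of Adgrd1, 4 were tested in the PC and 3 called, where 43.4% of all genes were. Ran, which lies 69.97 kb away and encodes the nuclear transport GTPase, fell by 0.37 (adjusted p = 0.00687), the splicing regulator gene Sfswap, 296.6 kb away, fell by 0.86 (adjusted p = 4.79e-05), and the syntaxin gene Stx2 rose by 0.34 (adjusted p = 0.0434). Around Nr5a2 5 genes were tested. Zfp281, a zinc finger gene 209.5 kb away, fell by 0.31 (adjusted p = 0.0103), and Ptprc, which encodes CD45 and lies 1102 kb away, rose by 0.35 (adjusted p = 0.00812). In the spleen, where 5.48% of all genes passed, Stx2 fell by 1.15 (adjusted p = 0.0191). Nek7, 1522 kb from Nr5a2, had a log2 difference of -0.74 there (adjusted p = 0.105) and was called in DESeq2. In edgeR it was called lower without NFKBIE-wt spleen replicate 4, where 12.2% of all genes passed.

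The patterns of Adgrd1 and Nr5a2 over the 22 samples were unlike each other (Pearson's r of log2 levels 0.133), and Nr5a2 ranked 4503rd of 11091 other protein-coding genes by its likeness to Adgrd1. Nearest to Adgrd1 were Ndrg2 (0.945), Doc2g (0.926), Carns1 (0.920), Cfap96 (0.919) and Tmem151b (0.914). Ndrg2 averaged 5.57 CPM in the NFKBIE-wt PC, 1.31 in the NFKBIE-ko PC and 0.126 or less elsewhere. Nearest to Nr5a2 were Ppan (0.767), Prdm4 (0.765), Gpn1 (0.754), Snapc4 (0.752) and Ipo5 (0.751), each also lowest in the NFKBIE-ko PC. These values share libraries and composition of the samples and describe these 22 samples only.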

How the data were processed

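RNA from 22 samples was sequenced as paired-end mRNA libraries. The authors estimated transcript abundance with Salmon 1.8 on GRCm39 and deposited estimated counts (expected counts) per transcript, not normalized. The table holds 62492 transcripts, each above 0 in at least 5 samples, and 69.5% of values are not whole. Values were rounded. In all, 62147 transcripts matched GENCODE vM39, of the same build, and unmatched ones held 0.619% of the counts. Salmon divides reads shared by transcripts, so the values of overlapping transcripts are less certain than gene sums. Groups came from titles and sources, since the labels give blood as the tissue and some descriptions of NFKBIE-ko samples open with the NFKBIE-wt name.

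Genotypes were compared per compartment, and spleen with culture in 1 fit of all 22 samples, with edgeR 4.0.16 (filter at a minimum count of 10, TMM, robust quasi-likelihood, Benjamini-Hochberg over all genes or transcripts, threshold 0.05) in R 4.3.3. DESeq2 1.42.0 was an alternative. Fitted differences are scaled within a compartment and can differ slightly from ratios of CPM. The test was checked on simulated counts. Replicates differed by more than sampling noise (chi-square per degree of freedom 6.85 to 200 over 30 pairs). Per the study's text, the cultures came from spleens of 3 mice and were kept apart. Same-numbered samples of the genotypes did not deviate together (residual correlations -0.325 to 0.180) and were not paired. Likeness was Pearson's r of log2(CPM + 1) over 22 samples among genes with a mean of at least 1 CPM, and the first 5 genes were named, besides called genes of the lists. Members and lists were chosen with earlier results of these data known. Alternatives were other size factors, filters and tools, the replicate block, the most abundant transcript, each library left out and, chosen after seeing the data, scaling to B-cell markers and leaving out 2 libraries. Figures were drawn with matplotlib 3.10.9. One lesion of the line is not reported here. Protein sequences were not used here.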

Additional observations from a re-analysis of the deposited data

How the results depend on the processing

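Both genes stayed lower in the NFKBIE-ko PC under every alternative run. With 1 library left out, the difference ran from -1.66 to -1.44 for Adgrd1 and from -2.01 to -1.55 for Nr5a2. The choice of the genes by these same samples largely set this outcome in advance, so nothing is read from it. Scaled to B-cell markers, chosen after seeing the data, Adgrd1 moved to -1.25 in the PC, 0.90 in the spleen and 0.16 (turned) in vitro, and Nr5a2 to 1.18 and 0.50 in the spleen and in vitro. DESeq2 called Nr5a2 in the spleen (0.71) and for NFKBIE-ko spleen minus culture (0.75). Leaving out both libraries that went against their label, also chosen after seeing the data, called the latter (0.77) and turned Nr5a2 spleen minus culture in NFKBIE-wt (-0.030). In vitro, Nr5a2-201 alone turned the sign (-0.11), as the gene sum (0.0095) did for Nr5a2-201. With 1 library left out, Nr5a2 ranged in vitro from -0.25 to 0.47 and, for spleen minus culture, from -0.23 to 0.51 in NFKBIE-wt and from 0.60 to 0.84 in NFKBIE-ko (adjusted p from 0.0272 to 0.146), and Adgrd1 from -0.22 to 0.28 in NFKBIE-ko. Under the replicate block the values in the PC were -1.54 for Adgrd1 and -1.78 for Nr5a2. It changed no call of either gene, but moved the number of transcripts called, which was 931 instead of 2064 in the PC and 0 instead of 104 in the spleen. DESeq2 called 3274, 915 and 224 in the PC, spleen and in vitro (0 in edgeR, 1774 at an unadjusted p below 0.05), and edgeR on all samples 956, 582 and 30. In the spleen the count ran from 1 without NFKBIE-ko replicate 1 to 257 without NFKBIE-wt replicate 4. Apart from the constructions named, the causes were not tested. Nr5a2-202, with 9 to 242 counts per sample, is the least precise transcript.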
